A study of Homo sapiens with 6 samples.

Results

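RBM3 and CIRBP are the paired cold-inducible RNA-binding protein genes, and both are described here as 2 of the 31368 genes of an expression table in FPKM, fragment counts scaled for gene length and library total. They were picked by name, but they were selected on the lactate-against-untreated difference in these same libraries, so that difference is given as a description with no test. The RNA came from CAL27, an established oral squamous carcinoma line taken from the tongue, and was enriched for poly-A RNA. The groups were 3 libraries from cells given 10 mM lactate for 24 h and 3 libraries from cells with no treatment. Neither the form of lactate, its effect on pH and the culture temperature, nor whether a group's 3 libraries were separate cultures, could be learned from the labels. P-values therefore cover the variation among these 6 libraries alone, which may be technical.

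RBM3 and CIRBP encode small proteins with a single N-terminal RNA recognition motif and a C-terminal tail rich in arginine and glycine. Their mRNAs accumulate when mammalian cells are cooled mildly and decline on warming, and the proteins bind other mRNAs and affect their stability, translation and poly-A site use. In warm cells RBM3 mRNA is kept low in part by a poison exon whose skipping depends on the splicing factor hnRNP H1. A value per gene adds up all isoforms, so exon choice cannot be read from this table.

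RBM3 (ENSG00000102317) lies on chromosome X, 48574449 to 48579066 on the plus strand in GRCh38, and CIRBP (ENSG00000099622) on chromosome 19, 1259384 to 1274880 on the plus strand. The 250 bases before each RefSeq transcript start (GRCh38.p14) are shown because factors that bind mild-cold, heat shock and GC-rich elements have been reported upstream of these genes. Capitals mark every match to the motifs searched on both strands.

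RBM3, chrX:48574234-48574483, plus strand: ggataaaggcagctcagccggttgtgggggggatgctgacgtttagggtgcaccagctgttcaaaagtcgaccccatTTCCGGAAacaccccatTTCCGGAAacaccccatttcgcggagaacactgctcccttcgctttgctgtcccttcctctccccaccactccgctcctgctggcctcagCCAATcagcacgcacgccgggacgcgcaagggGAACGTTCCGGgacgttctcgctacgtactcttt

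CIRBP, chr19:1269082-1269331, plus strand: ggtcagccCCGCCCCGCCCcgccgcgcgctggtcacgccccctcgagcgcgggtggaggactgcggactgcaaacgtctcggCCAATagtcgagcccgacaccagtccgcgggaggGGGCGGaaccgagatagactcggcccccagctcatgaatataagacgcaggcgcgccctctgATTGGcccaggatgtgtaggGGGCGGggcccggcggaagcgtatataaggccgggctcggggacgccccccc

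The 2 windows held different motifs. The RBM3 window had 5 matches to the ETS core CCGGAA, which 14.5% of 35116 RefSeq promoters of the same length held at least once. It also had 2 matches to the outward heat shock pattern TTCNNGAA (6.62% of promoters) and 1 to the inward pattern GAANNTTC (5.78%). Both outward matches are the repeated 8-mer TTCCGGAA, which contains overlapping ETS cores on both strands, and the inward match overlaps the fifth ETS core. The CIRBP window had 4 matches to the GC box GGGCGG, to which SP1 and SP3 bind (42.6% of promoters), and none to the ETS core or to either heat shock pattern. The only motif found in both was CCAAT (32% of promoters), with 1 match for RBM3 and 2 for CIRBP. Neither window held the octamer TCCCCGCC, described as a mild-cold response element of mouse Cirbp (7.75% of promoters), nor the cAMP response element TGACGTCA (1.65%), the E-box CACGTG (6.34%) or TATAAA (10.7%). GC content was 59.6% before RBM3 and 71.2% before CIRBP, against a median of 58% over all promoters. A match is a string of letters, not a bound site, and the motifs were chosen with the windows in view. The shares count promoters with at least 1 match, and no enrichment was tested. Only the patterns printed here were searched, so variants of an element, such as other forms of TATAAA, were not counted. GENCODE 29 starts RBM3 35 bases earlier than RefSeq. It starts CIRBP at 1259384, so all 250 bases of the CIRBP window lie inside that gene, 66 of them in its exons. The CIRBP window thus precedes an internal start of the gene model whose length fits the FPKM values. Each window also lies inside an antisense gene on the minus strand, AC115618.1 at RBM3 and CIRBP-AS1 at CIRBP.

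**Figure D1:**
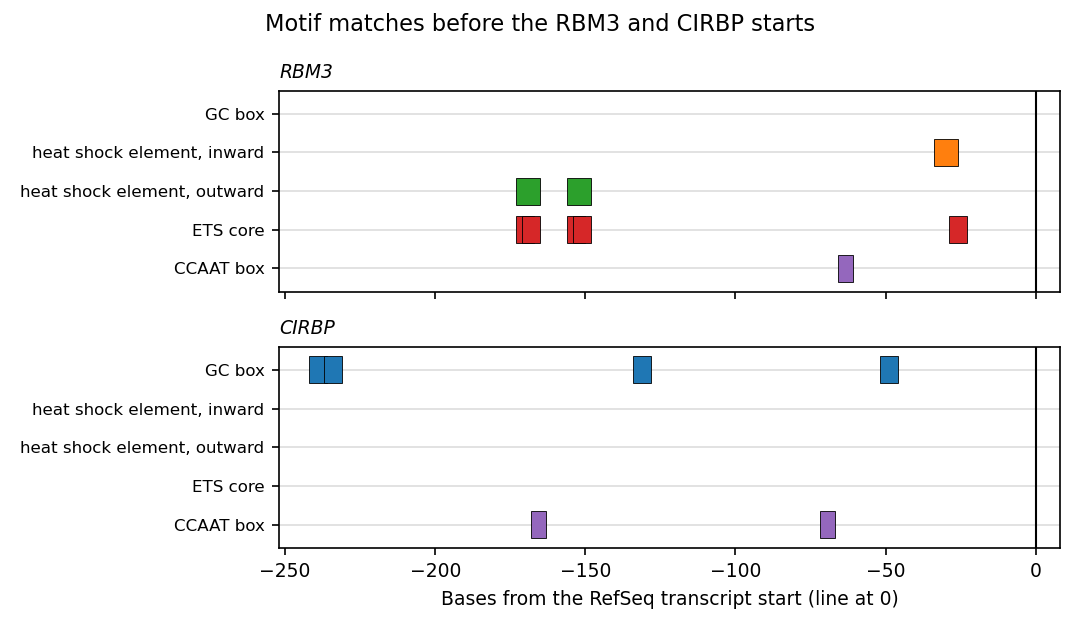
Positions of motif matches in the 250 bases before the RefSeq transcript starts of RBM3 (upper) and CIRBP (lower), in bases from the start, 1 row a motif; motifs with no match in either window are not drawn. ETS cores and heat shock patterns were matched before RBM3 and GC boxes before CIRBP, while both had CCAAT.

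Library depth allowed both genes to be read to within a few percent. Reads recovered from the FPKM steps summed to 30219576, 31735728 and 38909042 in lactate replicates 1 to 3 and to 29013819, 25511407 and 33813821 in untreated replicates 1 to 3. Libraries of the same group differed by more than counting noise (chi-square per gene 1.86 to 3.68). The recovered reads came to 96.5% to 97.6% of the totals behind the FPKM scaling in lactate and to 101% to 103% in untreated libraries, a gap that enters every fold change below by scale. All 8 squamous epithelial markers passed the filter, among them KRT5 (118 ± 2.22 FPKM in lactate, 155 ± 1.68 untreated) and TP63 (32.0 ± 0.463 in lactate, 26.3 ± 0.601 untreated), with KRT14 the lowest keratin of the list (2.83 ± 0.0838 in lactate, 2.02 ± 0.178 untreated). Of the fibroblast, leukocyte and endothelial markers listed, 7 were analysed and none passed the minimum of 1 FPKM in 3 libraries; the highest in lactate was LUM, at 0.642 to 0.842 FPKM in lactate and 0.318 to 0.417 FPKM untreated. The 3 fibroblast markers summed to 1.24 to 1.46 FPKM in lactate and 0.831 to 0.955 FPKM in untreated libraries. The 4 leukocyte and endothelial markers summed to 0.135 to 0.163 FPKM in lactate and 0.0425 to 0.154 FPKM in untreated libraries. Of 11792 genes tested with limma, 58.6% passed at a Benjamini-Hochberg adjusted p of 0.05, 30.9% as lower and 27.7% as higher in lactate. Of the squamous markers 4 rose, 2 fell and 2 did not pass, and their part in the values below was not tested.

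RBM3 mRNA was lower in every lactate library than in any untreated one, and groups that did not overlap were found for 65.5% of all genes tested. It stood at 15.8, 15.9 and 15.8 FPKM in lactate replicates 1 to 3 and at 26.7, 27.2 and 25.5 FPKM in untreated replicates 1 to 3. The means were 15.8 ± 0.0751 FPKM in lactate and 26.5 ± 0.856 FPKM in untreated cells (SD, n = 3 each), 40.2% lower and a log2 fold change of -0.71 on the log2(FPKM + 1) scale. In a bulk culture, fewer cells with RBM3 mRNA and less of it per cell cannot be told apart. These values rest on 2849, 3053 and 3705 reads in lactate replicates 1 to 3 and on 4398, 3990 and 4955 reads in untreated replicates 1 to 3. The coefficient of variation was 0.474% in lactate and 3.23% in untreated libraries, beside a counting error of 1.87% at 2849 reads. The 3 lactate values thus lay closer together than counting error alone would place them on average.

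CIRBP mRNA was also lower in every lactate library than in any untreated one, by less. It stood at 12.6, 12.1 and 12.4 FPKM in lactate replicates 1 to 3 and at 18.5, 16.9 and 17.5 FPKM in untreated replicates 1 to 3. The means were 12.4 ± 0.247 FPKM in lactate and 17.6 ± 0.828 FPKM in untreated cells (SD, n = 3 each), 29.7% lower and a log2 fold change of -0.48. The reads behind them were 2490, 2542 and 3176 in lactate replicates 1 to 3, and 3334, 2702 and 3718 in untreated replicates 1 to 3. Untreated replicate 1 was the highest of the 6 for CIRBP, whereas untreated replicate 2 was the highest for RBM3.

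**Figure D2:**
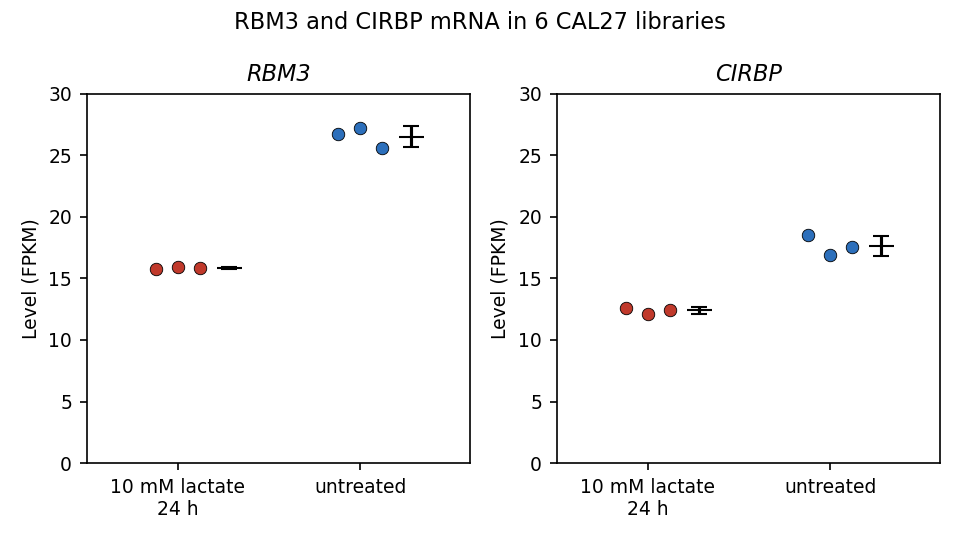
Levels of RBM3 and CIRBP (FPKM, axis from 0) in 3 libraries of CAL27 cells given 10 mM lactate for 24 h and in 3 untreated libraries; points are libraries and bars are the mean ± SD. For both genes the 3 lactate points lie below the 3 untreated points, at 15.8 to 15.9 FPKM in lactate against 25.5 to 27.2 FPKM untreated for RBM3, and 12.1 to 12.6 FPKM in lactate against 16.9 to 18.5 FPKM untreated for CIRBP.

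The balance between the genes differed between the groups. The ratio of RBM3 to CIRBP in FPKM was 1.25, 1.31 and 1.28 in lactate replicates 1 to 3 and 1.44, 1.61 and 1.46 in untreated replicates 1 to 3. Its mean was 1.28 ± 0.0313 in lactate and 1.504 ± 0.0954 in untreated cells (SD, n = 3 each), and the groups did not overlap. Both genes were selected on the lactate difference, so the ratio is a description and was not tested. How often the ratio of other gene pairs separates the groups was not computed. RBM3 was the higher of the pair in all 6 libraries. The absolute size of this ratio depends on the gene models. The length that turns RBM3 values into whole reads is 5827 nt, 1.56 times the 3731 nt of its exons in GENCODE 29, while for CIRBP it is 6368 nt, equal to GENCODE 29. The RBM3 length is also longer than the whole GENCODE 29 locus of the gene, 48574449 to 48579066. The gene model behind the RBM3 values therefore reached beyond that locus, and which sequence it added is not known. The ratio between groups does not use the length, but it does rest on reads of that model.

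Set among all genes tested, both members, which were selected on the lactate difference, lay toward the low end of the fold changes. The median log2 fold change of all genes tested was -0.02. Of the genes that passed, those higher in lactate made up 47.2%, and 61.9% when libraries were scaled to their recovered read totals, under which the median was 0.04, RBM3 had -0.64 and CIRBP had -0.41. In size, 5 of 9885 protein-coding genes had a lower fold change than RBM3 and 72 had a lower one than CIRBP. Over all 11792 genes, these numbers were 32 and 202. Under the alternatives they ranged from 8 to 124 for RBM3 and from 102 to 378 for CIRBP, lowest with the filter at 5 FPKM, where fewer genes were tested, and highest with voom on recovered reads. By level, RBM3 ranked between 2861 and 2864 among the genes tested in lactate libraries and between 1829 and 1935 in untreated libraries. CIRBP ranked between 3454 and 3516 in lactate and between 2587 and 2807 in untreated libraries.

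The antisense genes that overlap the members were near the detection limit. CIRBP-AS1, which shares 4 exonic bases with CIRBP, stood at 0.762, 0.807 and 0.587 FPKM in lactate replicates 1 to 3 and at 1.07, 1.11 and 0.974 FPKM in untreated replicates 1 to 3. The lactate values were again all below the untreated ones, but they rest on 32 to 36 reads in lactate and 38 to 44 in untreated libraries, and the gene missed the filter for testing. AC115618.1, which shares 95 exonic bases with RBM3, had 14 to 24 reads in lactate and 16 to 26 in untreated libraries and did not pass (adjusted p = 0.503). The labels do not say whether counting used strand, so reads of these genes and of the members may not be fully told apart.

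The nearest tested genes with a symbol that flank RBM3 and CIRBP had smaller differences than RBM3, and 1 of the 12 matched that of CIRBP. Around RBM3, EBP, an enzyme gene of sterol synthesis, was at 20.9 ± 0.319 FPKM in lactate and 29.5 ± 1.46 FPKM untreated (log2 fold change -0.48, SE 0.04, adjusted p = 5.11e-05). WDR13 fell by 0.24 on the log2 scale (adjusted p = 0.00292), while PORCN, TBC1D25, SUV39H1 and HDAC6 did not pass (log2 fold changes -0.09 to -0.01), though SUV39H1 passed as lower under 3 alternatives. Around CIRBP, FAM174C, which begins just past its end, was at 22.3 ± 0.683 FPKM in lactate and 29.3 ± 1.01 FPKM untreated (log2 fold change -0.38, adjusted p = 9.22e-05). STK11, ATP5F1D and MIDN on the other side fell by 0.14 to 0.15, and PWWP3A and NDUFS7 did not pass, though PWWP3A passed as lower under 3 alternatives. ATP5F1D no longer passed under 3 of 16 alternative settings, and STK11 and MIDN under 1 each.

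RBM3 and CIRBP, both selected on the lactate difference itself, stood below the 37 tested genes that share the RBM name. Of 41 such genes other than RBM3, 37 were tested: 12 fell (32.4%), 10 rose (27%) and 15 did not pass. These shares were near the 30.9% lower and 27.7% higher among all genes tested. The median was 0.03 against -0.02 for all genes tested, and none had a fold change as low as RBM3 or CIRBP. The split shifted with the processing, to 10 lower and 14 higher when libraries were scaled to their read totals and to 17 lower and 3 higher when trends on GC content and gene length were removed. RBM14, a coactivator and paraspeckle protein gene, had the lowest value of the 37, at 11.9 ± 0.193 FPKM in lactate and 15.04 ± 0.210 untreated (log2 fold change -0.31, SE 0.03, adjusted p = 6.95e-05). RBM4B, RBM19 and the spliceosome gene RBM22 followed with -0.31, -0.31 and -0.29, and the splicing regulator RBM10 had -0.29, or -0.186 without the GC and length trends. On the other side RBM24, which encodes a muscle splicing regulator, rose by 0.23 (6.68 ± 0.0854 FPKM in lactate, 5.53 ± 0.188 untreated). RBMX, which encodes hnRNP G and like RBM3 pairs a single RNA recognition motif with a glycine-rich tail, was at 24.0 ± 0.846 FPKM in lactate and 25.7 ± 0.738 untreated (log2 fold change -0.10, adjusted p = 0.0364).

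**Figure D3:**
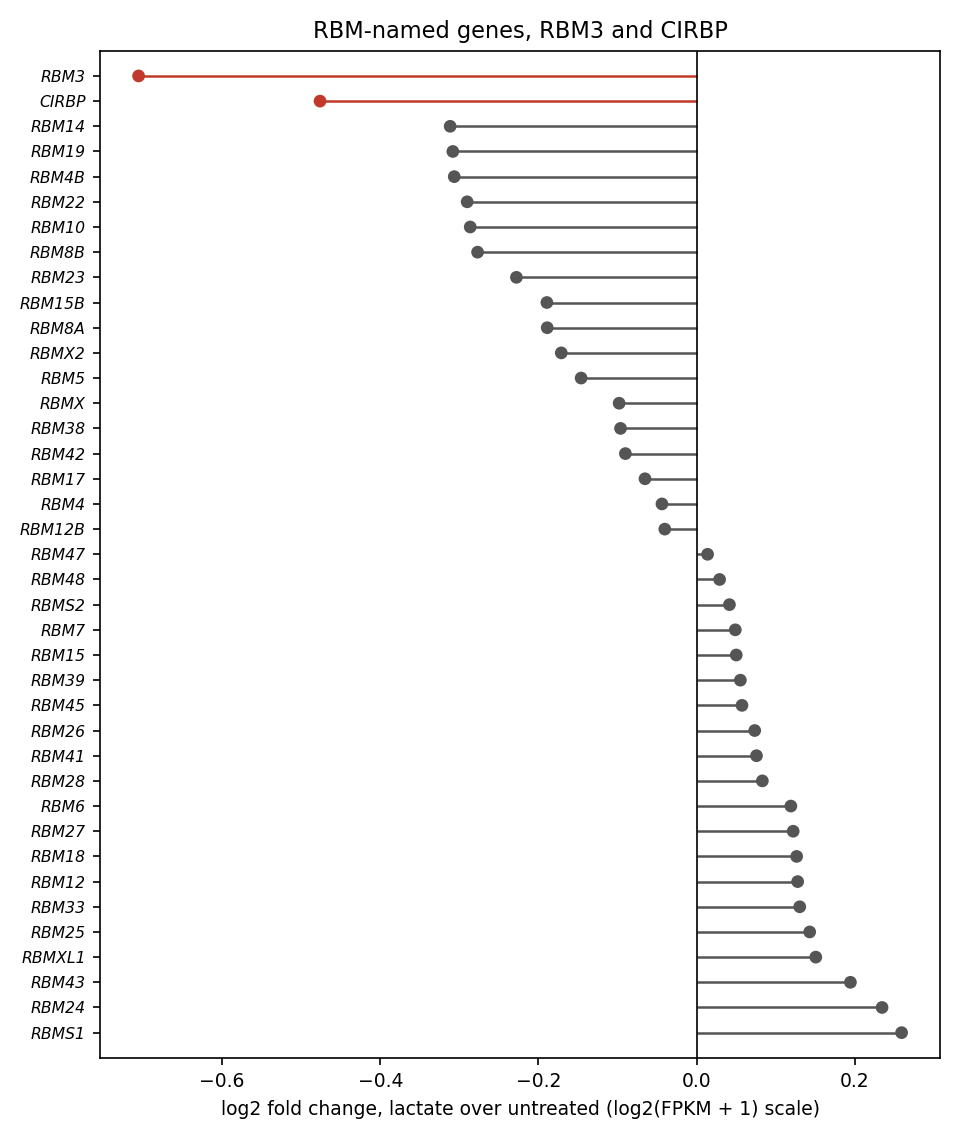
log2 fold change of lactate over untreated (log2(FPKM + 1) scale) for RBM3 and CIRBP (red) and the 37 tested genes that share the RBM name (grey), in order. The members, which were selected on this difference, lie at -0.71 and -0.48, below RBM14 at -0.31, and the highest of the 37 is at 0.26.

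By level per length, RBM3 was one of the more abundant of these genes. In lactate cells it was 5th of the 43 genes, CIRBP included, and in untreated cells 3rd. Its untreated values overlapped those of RBMX (25.0 to 26.5 FPKM), next in order. Its lactate values lay below RBM12 (17.5 to 18.1 FPKM) and overlapped RBM10 (14.6 to 15.8 FPKM). CIRBP was 11th in lactate and 7th in untreated cells. It lay within the range of RBM8A in lactate (12.4 to 13.2 FPKM) at its upper values, and overlapped RBM22 in untreated cells (17.1 to 18.9 FPKM). All its values lay above RBM14, next below it in lactate (11.7 to 12.04 FPKM), and above RBM12, next below it in untreated cells (15.97 to 16.4 FPKM). RBM8B, a processed pseudogene of RBM8A, heads the order at 54.6 ± 2.68 FPKM in lactate and 66.3 ± 2.58 untreated, and reads of such near-identical copies may be shared. RBM20, RBM34, RBM44 and RBMS3 were under 0.4 FPKM in all 6 libraries. The same RBM3 reads divided by the GENCODE 29 length would give values 1.56 times higher. Reads within that shorter gene model were not counted, so the RBM3 level under it is not known.

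Of 10 more distant relatives with RNA recognition motifs and a glycine-rich or RGG region, 5 fell, 1 rose and 4 did not pass (median -0.05), beside 30.9% lower and 27.7% higher among all genes tested. After scaling to read totals or quantile normalization these counts were 4 fallen and 3 risen. With GC and length trends removed, 7 fell and 1 rose. HNRNPAB, an hnRNP gene with RNA recognition motifs and a glycine-rich tail, was at 154 ± 2.57 FPKM in lactate and 199.8 ± 3.41 untreated (log2 fold change -0.37, SE 0.02, adjusted p = 1.7e-05), a fold change that was -0.195 after quantile normalization and -0.222 once GC and length trends were removed. EWSR1, an RNA-binding protein gene with an RGG region, fell by 0.35 on the log2 scale. HNRNPDL rose by 0.24 (adjusted p = 0.000253) while its paralog HNRNPD passed only narrowly (log2 fold change -0.07, adjusted p = 0.0438). HNRNPD was lost with the same sign under 8 of 16 alternatives. It was also lost after quantile normalization, where it was positive (0.0133, adjusted p = 0.702).

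Of 10 genes reported upstream of RBM3 or CIRBP, 6 were tested, of which 3 rose, 1 fell and 2 did not pass (median 0.12, against -0.02 for all genes tested). The share that rose was 50% and the share that fell 16.7%, beside 27.7% and 30.9% of all genes tested. CREB1, which acts below the TrkB receptor in the cold induction of mouse Rbm3, was at 4.16 ± 0.104 FPKM in lactate and 3.14 ± 0.115 untreated (log2 fold change 0.32, SE 0.04, adjusted p = 0.00031), and its fold change was 0.108 once GC and length trends were removed. HSF2, a heat shock factor gene, rose by 0.30. SP3 rose by 0.20, a value that was -0.0179 once GC and length trends were removed. SP1, reported to bind the cold response element of mouse Cirbp, was at 8.88 ± 0.358 FPKM in lactate and 9.19 ± 0.249 untreated and did not pass (log2 fold change -0.05, adjusted p = 0.306). SP1 passed as lower once GC and length trends were removed (-0.139, adjusted p = 0.00433) and was at 0.0177 with read totals. HSF1 passed at the threshold (log2 fold change -0.11, adjusted p = 0.0495) and was lost under 10 of 16 alternatives. The channel genes TRPV3, TRPV4 and TRPM8 and the receptor gene NTRK2, which encodes TrkB, were under 0.5 FPKM in all 6 libraries.

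Splicing factors and kinases through which temperature acts on exon choice moved in both directions, with 8 fallen and 7 risen of 22 (median 0.01). These shares, 36.4% and 31.8%, were near the 30.9% and 27.7% of all genes tested. With GC and length trends removed 14 fell and 4 rose, and with read totals 6 fell and 11 rose. HNRNPH1, on which skipping of the RBM3 poison exon depends, was at 28.4 ± 0.674 FPKM in lactate and 27.3 ± 0.660 untreated and did not pass (log2 fold change 0.06, adjusted p = 0.124), and its direction depended on the setting. HNRNPH1 passed as higher after quantile normalization (0.124, adjusted p = 0.0121), with read totals (0.124, adjusted p = 0.00591) and with voom (adjusted p = 0.0332), and as lower once GC and length trends were removed (-0.143, adjusted p = 0.000333). Its relative HNRNPF was at 132 ± 0.260 FPKM in lactate and 171 ± 0.758 untreated (log2 fold change -0.37, adjusted p = 9.81e-06), or -0.186 after quantile normalization. SRSF5, an SR protein gene reported to be cold-inducible, was at 54.1 ± 1.17 FPKM in lactate and 61.1 ± 2.17 untreated (log2 fold change -0.17, adjusted p = 0.00212), and did not pass after quantile normalization (adjusted p = 0.14), while its fold change was -0.318 once GC and length trends were removed. CLK1 and CLK4, kinases of SR proteins whose activity rises as cells cool, rose by 0.14 and 0.19. CLK1 was lost with the same sign under 7 of 15 alternatives. It was also lost once GC and length trends were removed, at -0.011 (adjusted p = 0.837). CLK4 was lost under 2 of 15.

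Among 12 genes for enzymes that modify the proteins, for their import and for stress granules, 5 rose and 2 fell (median 0.07). That is 41.7% and 16.7%, beside 27.7% and 30.9% of all genes tested. Once GC and length trends were removed, 2 rose and 6 fell. PRMT1, an arginine methyltransferase reported to act on the RGG region of the frog homologue of CIRBP, was at 79.2, 80.2 and 79.1 FPKM in lactate replicates 1 to 3 and at 105, 106 and 105 FPKM in untreated replicates 1 to 3. Its log2 fold change was -0.40 (SE 0.02, adjusted p = 9.81e-06), the lowest of this list, and -0.265 after quantile normalization. IGF2BP2, an mRNA-binding protein gene reported as a partner of RBM3 in neural stem cells of mice, had the highest, at 26.3 ± 0.322 FPKM in lactate and 19.6 ± 0.211 untreated (log2 fold change 0.41, adjusted p = 1.7e-05). TNPO1, the import receptor of CIRBP, did not pass (log2 fold change 0.07). It passed as higher under 5 alternatives, among them quantile normalization (0.123, adjusted p = 0.00736) and read totals (0.134, adjusted p = 0.0028), and as lower once GC and length trends were removed (-0.147, adjusted p = 0.000178). GSK3B, a kinase reported to phosphorylate CIRBP, rose by 0.19 but was lost once those trends were removed (adjusted p = 0.942). The stress granule gene G3BP2 rose by 0.28, and by 0.0975 with the trends removed.

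The mRNAs reported as targets of the 2 proteins also split, with 4 fallen and 4 risen of 10 (median 0.02). Each direction held 40% of them, beside 30.9% lower and 27.7% higher among all genes tested. With read totals or quantile normalization 3 fell and 5 rose, and with GC and length trends removed 5 fell and 2 rose. VEGFA, bound by RBM3 in colon cancer cells, was at 17.3 ± 0.443 FPKM in lactate and 22.9 ± 0.414 untreated (log2 fold change -0.39, SE 0.03, adjusted p = 4e-05). PTGS2, reported with it, rose by 0.29 (adjusted p = 0.000764), and by 0.124 once GC and length trends were removed. Of the stress targets of CIRBP, RPA2 was at 37.9 ± 0.863 FPKM in lactate and 47.8 ± 0.724 untreated (log2 fold change -0.33, adjusted p = 4.72e-05). The thioredoxin gene TXN was at 880 ± 8.42 FPKM in lactate and 966.5 ± 13.98 untreated (log2 fold change -0.14), and turned to 0.0274 after quantile normalization. The checkpoint kinase gene ATR rose by 0.20, a change that was -0.0153 without the GC and length trends. HIF1A rose by 0.29 (adjusted p = 0.00027), and by 0.137 with those trends removed. RTN3, whose translation RBM3 raises in mouse brain, did not pass (46.6 ± 0.936 FPKM in lactate, 45.1 ± 0.598 untreated). It passed as higher after quantile normalization (0.159, adjusted p = 0.000725) and with read totals (0.116, adjusted p = 0.00218), and as lower once GC and length trends were removed (-0.0750, adjusted p = 0.0109).

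Clock genes and heat shock genes, also linked to temperature, showed no common direction. Of 12 clock genes tested 4 fell and 2 rose (33.3% and 16.7%, median -0.04), beside 30.9% and 27.7% of all genes tested. The number of clock genes that passed came to 2 without lactate replicate 1 and to 3 without untreated replicate 2 or 3. CRY1, a clock repressor gene, was at 7.21 ± 0.225 FPKM in lactate and 5.71 ± 0.260 untreated (log2 fold change 0.29, adjusted p = 0.000612), or 0.139 once GC and length trends were removed. NR1D1, another repressor gene of the clock, was at 1.11 ± 0.0756 FPKM in lactate and 1.51 ± 0.238 untreated (log2 fold change -0.25, adjusted p = 0.0225), and was lost under 3 of 15 alternatives. PER2 was below the filter, at 0.710, 0.757 and 0.803 FPKM in lactate replicates 1 to 3 and at 1.05, 0.948 and 0.887 FPKM in untreated replicates 1 to 3. Of 17 heat shock genes 8 fell and 5 rose (47.1% and 29.4%, median -0.04), beside 30.9% and 27.7% of all genes tested. These counts were 3 fallen and 9 risen after quantile normalization and 7 each with read totals. The collagen chaperone gene SERPINH1 fell by 0.53 on the log2 scale, beyond CIRBP, with 20.5 ± 0.164 FPKM in lactate and 29.9 ± 0.264 untreated. The chaperone genes HSP90AA1, HSPA4 and HSPH1 rose by 0.38, 0.35 and 0.33. HSP90AA1 had 0.598 after quantile normalization, and HSPH1 had 0.147 once GC and length trends were removed. HSPA8 and STIP1 fell by 0.23 and 0.22 but did not pass after quantile normalization. Of 4 receptor genes reported for extracellular CIRBP, IL6R was at 7.88 ± 0.186 FPKM in lactate and 8.55 ± 0.0961 untreated (log2 fold change -0.11, adjusted p = 0.016, lost under 3 of 16 alternatives), LY96 did not pass, and TLR4 and TREM1 were under 0.3 FPKM.

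**Figure D4:**
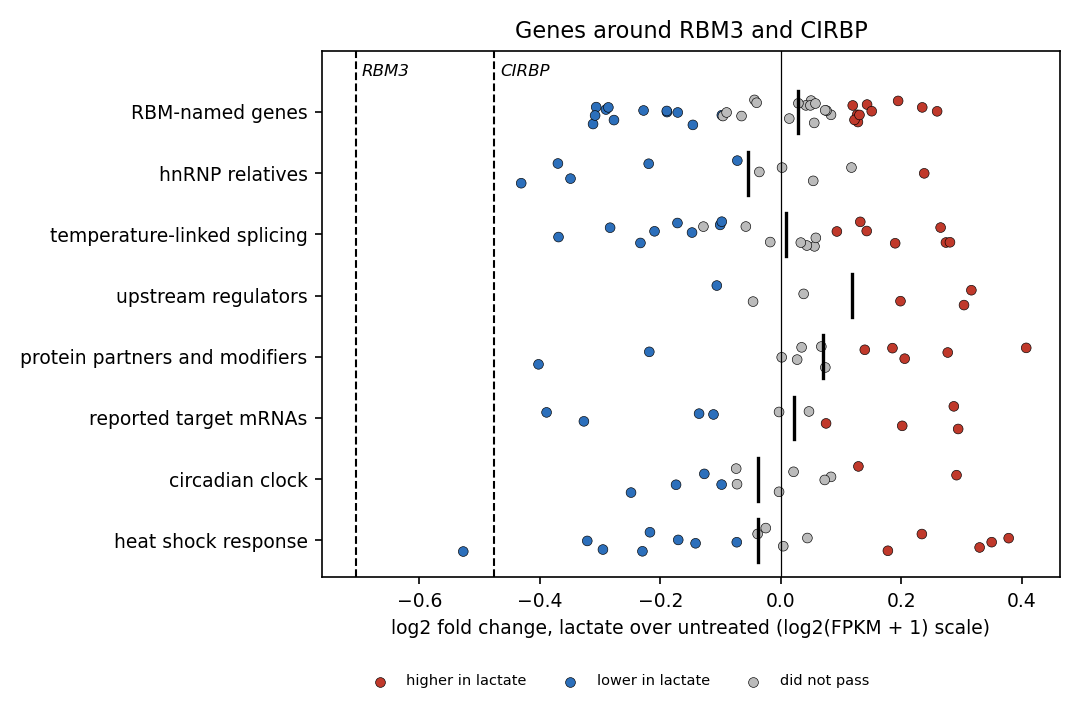
log2 fold change of lactate over untreated (log2(FPKM + 1) scale) for the tested genes of 8 lists, coloured by the limma test, with a thick bar at each median and dashed lines at RBM3 and CIRBP. The medians lie between -0.05 and 0.12, and SERPINH1 in the heat shock list is the only point beyond CIRBP.

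By library profile, the 2 members were not each other's nearest genes. Likeness was taken as the root mean square difference over the 6 libraries in log2(FPKM + 1), each gene set against its own untreated mean. Closest to RBM3 was FST, which encodes the activin inhibitor follistatin, at a distance of 0.0266, with 19.5 ± 0.522 FPKM in lactate and 32.8 ± 0.978 untreated. SREBF1, ATF5, PRKAR1B and INSIG1 came next at 0.0824 to 0.0906, so that FST stood well apart from them. CIRBP was 68th in that order, at 0.171. Closest to CIRBP were MRTO4, a ribosome biogenesis gene (0.0273; 60.1 ± 1.17 FPKM in lactate, 84.6 ± 1.43 untreated), and the cytokine gene IL6 (0.0294; 14.8 ± 0.227 FPKM in lactate, 20.9 ± 0.751 untreated). The import chaperone gene TIMM10, the polymerase subunit gene POLE3 and the synthetase-complex gene AIMP2 followed at 0.0300 to 0.0322. RBM3 was 1093rd in the order around CIRBP. Since each gene is set against its untreated mean, the distance includes the size of the group difference, on which the members were selected. That size was -0.71 for RBM3, -0.72 for FST and -0.48 for CIRBP on the log2 scale. The order therefore largely restates the fold changes, and it was not tested.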

How the data were processed

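Poly-A RNA of CAL27 cells was sequenced in 6 libraries, 3 with lactate and 3 untreated, grouped by the treatment in the labels. The deposited values are FPKM, computed by the authors. The submitters' processing notes name fastp, featureCounts (1.5.0-p3), StringTie (1.3.3b), HISAT2 (2.0.5) and the build hg38. Which tool did what, with which annotation and strand setting, was not given in the sources used here.

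Tests used limma 3.58.1 (R 4.3.3), trended and robust, on log2(FPKM + 1) for the 11792 genes with at least 1 FPKM in 3 libraries, with group as the only term and Benjamini-Hochberg adjustment over all of them at 0.05. Fold changes are on that scale, which understates low genes; SE is limma's. FPKM of low genes fell on steps of whole reads, so reads were recovered for 31366 of 31368 genes to within 0.003 reads or 2 ppm of the count. Counting errors take reads as independent. Of 8154 genes with no symbol, 864 were named from the gene reference. Coordinates, lengths and GC content are from GENCODE 29 and promoters from RefSeq (GRCh38.p14), which held both members. Python 3.11.15 did the rest.

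Named were, in each list, up to 6 tested members with the smallest p, and genes set by role. Also named were the 3 nearest tested genes with a symbol on each side, overlapping genes and the 5 nearest profiles. RBM8B was added after its values were seen, and a few genes within this rule are not reported here. The members, the lists and the settings were chosen with earlier results of these data known, and the promoter motifs with the windows in view. Alternatives were quantile normalization, median centring, read totals, no variance trend, no filter, a 5 FPKM filter, a pseudocount of 0.1, removal of GC and length trends (splines, 4 degrees of freedom), a replicate block, voom on recovered reads and each library left out. Chromatin profiles of the same project were not used here.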

Additional observations from a re-analysis of the deposited data

How the results depend on the processing

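Under 16 alternatives the log2 fold change stayed between -0.759 and -0.638 for RBM3 and between -0.510 and -0.410 for CIRBP. It moved by more than the spread between replicates (0.0323 and 0.0489) with read totals (RBM3 -0.638, CIRBP -0.410), with GC and length trends removed (-0.759 and -0.416) and, for RBM3, after quantile normalization (-0.647); the cause was not tested. Of the calls over all genes, 47.2% were higher in lactate, against 61.9% with read totals. Counts of called members moved by over 1.5 times for 3 of 8 lists. Partners and modifiers moved to 11 with read totals, and upstream regulators to 2 with the 5 FPKM filter, where fewer genes were tested. Clock genes moved to 2 with no filter and to 3 with the 5 FPKM filter or without GC and length trends. With a library left out, clock genes moved to 2 without lactate replicate 1 and to 3 without untreated replicate 2 or 3. Signs turned after quantile normalization for TXN (0.0274) and HNRNPD (0.0133), and with GC and length trends removed for SP3 (-0.0179), ATR (-0.0153), HNRNPH1 (-0.143), CLK1 (-0.011), TNPO1 (-0.147) and RTN3 (-0.0750); the cause was not tested. Same-numbered libraries deviated from their group means with correlations of 0.0526, 0.0668 and -0.00377, so the numbers were not taken as pairs, and with the replicate block 7039 genes passed, against 6914. Depth limits the antisense genes and those below 1 FPKM most.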
